A study of Mus musculus with 18 samples.

Results

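The genes described here encode the nuclear part of the mitochondrial respiratory chain. They were chosen by name: every row of the expression table whose symbol starts with Nduf, Uqcr, Atp5, Cox4, Cox5, Cox6, Cox7 or Cox8, together with Sdha, Sdhb, Sdhc and Sdhd. This rule found 92 of 23951 genes, and 86 of them reached 1 FPKM in at least 3 of 18 libraries and were tested (FPKM, fragments per kilobase of transcript scaled to the number of mapped reads, is a level per transcript length). By the known place of each protein, the tested genes were 43 of complex I, 4 of complex II, 8 of complex III, 14 of complex IV and 17 of complex V. Of the tested genes 76 encode subunits, and the others encode complex I assembly factors, the supercomplex factor Cox7a2l and a pair of genes, Atp5s and Atp5sl, that are not parts of the synthase.

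The respiratory chain sits in the inner mitochondrial membrane. Complexes I and II take electrons from NADH and succinate and pass them to ubiquinone, complex III passes them on to cytochrome c, complex IV hands them to oxygen, and complex V, the ATP synthase, uses the proton gradient built on the way to make ATP. Each complex except complex II also holds subunits encoded by the mitochondrial DNA, and none of those was among the rows analysed here. In skin, keratinocytes and their stem cells are known to use glycolysis heavily, and respiration has been tied to their differentiation and to hair follicle cycling.

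All 18 libraries came from sorted cells of mouse ear skin, taken on day 7 after 4 daily injections of 2 mg tamoxifen that began at 8 weeks of age, from mice of both sexes on a mixed background. Each of 6 groups held 3 mice. HF-SC were bulge hair follicle stem cells (CD45- CD49f-high CD34+) and b-KC were basal keratinocytes (CD45- CD49f-high CD34-). Co mice (810, 825 and 828) carried the tamoxifen-inducible Cre-ERT driven by the keratin 5 promoter with wild-type or heterozygous floxed JunB and c-Jun, and DKO* mice (814, 815 and 817) carried Cre-ERT with both genes homozygously floxed. All carried the mT/mG reporter, which turns from Tomato to GFP where Cre has acted, so that each DKO* mouse gave a GFP fraction of mutant cells and a Tom fraction of non-mutant cells, and Tom cells had lived beside mutant cells in the same skin. One mouse therefore gave several libraries, and every comparison with Co rests on 3 mice against 3.

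Jun was at 835 to 1086 FPKM in HF-SC Co, 30.4 to 88.4 in HF-SC GFP and 308 to 614 in HF-SC Tom, and in basal keratinocytes at 876 to 1000, 29.6 to 65.4 and 163 to 400. Junb followed the same order. The GFP labels therefore matched the lowest levels, while Tom cells also lay below Co for both genes. Cd34 was at 161 FPKM or more in every HF-SC library and at 2.53 or less in every b-KC library. No read counts were used here, and the steps between low values implied 16531000 to 26249300 mapped reads per library, at which 3 reads on a 1 kb transcript make 0.114 to 0.181 FPKM. A value of exactly 0 may be a failed estimate, since Krt14 was listed at 0 in 3 b-KC libraries while the other 6 b-KC libraries had 6838 FPKM or more.

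Upstream DNA is shown for 4 of the genes with the largest changes, because this series is about a pair of AP-1 transcription factors and because respiratory chain genes are known as targets of NRF1 and of ETS factors such as GABP. The 250 bases before each gene start are given 5′ to 3′ on the gene's strand, from RefSeq on GRCm38.p6, with capitals marking matches to the NRF1 and ETS motifs described after them. Ndufa4 lies at chr6:11907451-11907700 (minus strand), Ndufaf4 at chr4:24897833-24898082 (plus strand), Sdhd at chr9:50603850-50604099 (minus strand) and Ndufb6 at chr4:40279422-40279671 (minus strand).
Ndufa4: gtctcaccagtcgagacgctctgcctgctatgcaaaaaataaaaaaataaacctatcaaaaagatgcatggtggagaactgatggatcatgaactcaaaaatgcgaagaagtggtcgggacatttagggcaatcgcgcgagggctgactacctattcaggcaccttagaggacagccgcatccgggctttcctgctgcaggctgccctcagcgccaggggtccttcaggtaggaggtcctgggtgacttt
Ndufaf4: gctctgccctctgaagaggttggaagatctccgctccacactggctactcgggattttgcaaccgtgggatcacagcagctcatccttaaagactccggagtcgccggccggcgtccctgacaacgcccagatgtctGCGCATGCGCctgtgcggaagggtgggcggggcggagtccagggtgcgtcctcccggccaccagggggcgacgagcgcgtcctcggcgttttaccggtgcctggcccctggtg
Sdhd: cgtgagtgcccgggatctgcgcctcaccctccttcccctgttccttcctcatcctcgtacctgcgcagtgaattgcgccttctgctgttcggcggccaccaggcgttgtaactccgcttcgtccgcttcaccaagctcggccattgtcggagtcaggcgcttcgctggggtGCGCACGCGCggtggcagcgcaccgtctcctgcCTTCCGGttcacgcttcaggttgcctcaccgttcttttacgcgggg
Ndufb6: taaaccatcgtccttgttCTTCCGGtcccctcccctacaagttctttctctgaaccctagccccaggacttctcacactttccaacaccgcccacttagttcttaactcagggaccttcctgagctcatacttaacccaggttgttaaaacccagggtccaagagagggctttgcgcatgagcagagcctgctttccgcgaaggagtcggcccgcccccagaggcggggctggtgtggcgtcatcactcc

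The NRF1 motif was searched as GCGCA, any base and GCGC, the ETS motif as CCGGAAG and the AP-1 motif as TGANTCA, each on both strands, and no matches of different motifs overlapped in the windows of the 76 respiratory chain genes that had a RefSeq entry. NRF1 matches stood in 14 of these 76 genes (18.4%), against 9.24% of 10088 tested genes with an entry and 4.23% of all 27025 genes with one. ETS matches stood in 13 (17.1%), against 15.6% of tested genes and 7.83% of all. AP-1 matches stood in 6 (7.89%), against 5.81% and 7.82%. In the windows shown, Ndufaf4 held an NRF1 match starting 113 bases before the gene start, Sdhd an NRF1 match at 79 and an ETS match at 46 bases, and Ndufb6 an ETS match at 232 bases, whereas Ndufa4 held none of the 3 motifs.

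The respiratory chain genes held 2.12% to 2.61% of the summed FPKM in HF-SC Co and 2.71% to 2.96% in b-KC Co. In DKO* mice this share was 2.79% to 3.55% in HF-SC GFP, 2.59% to 4.16% in HF-SC Tom, 4.02% to 4.74% in b-KC GFP and 4.44% to 4.88% in b-KC Tom. All 6 b-KC libraries of DKO* mice thus lay above all Co libraries, while HF-SC Tom overlapped HF-SC Co. The total itself also differed, at 462297 to 481610 FPKM in b-KC Co and 497742 to 706509 in b-KC GFP.

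**Figure D1:**
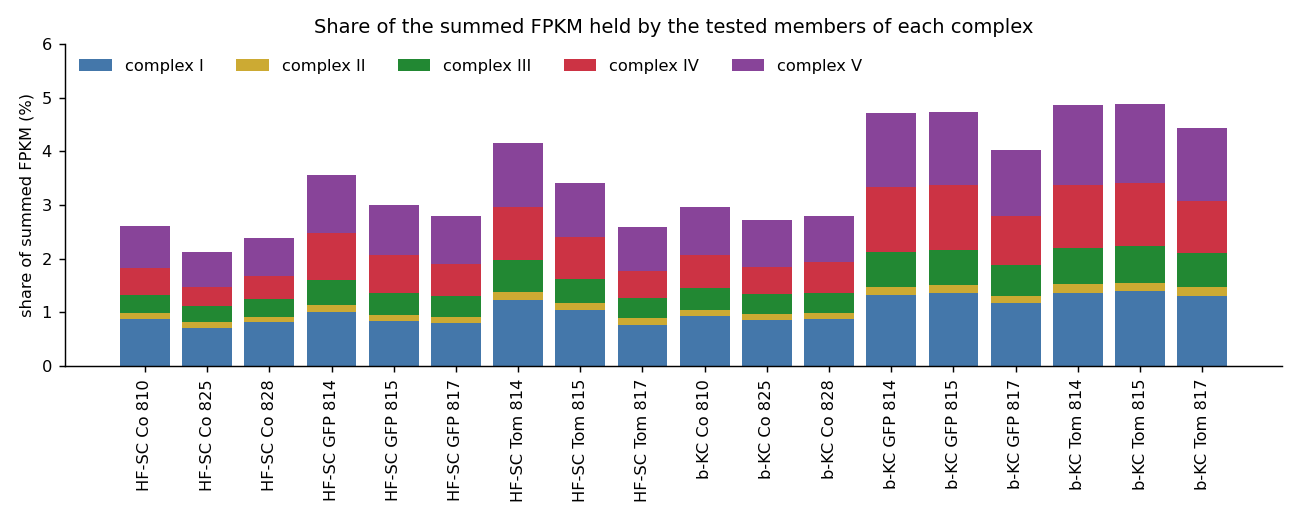
Stacked bars of the share of the summed FPKM (%) held by the tested members of each complex (colours) in each of the 18 libraries, named by group and mouse. The b-KC GFP and b-KC Tom bars stand at 4.02% to 4.88%, above every Co bar.

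Complex III had the highest mean level per tested gene and complex I the lowest in every group. The complex I means include 7 assembly factors, which are not subunits and had a median level of 12.3 FPKM. The median level was 126 FPKM for its accessory subunits and 141 for its core subunits. The rank of complex I without the assembly factors was not computed. The mean of log2(FPKM + 1) over the tested genes of complex I was 5.75 ± 0.24 in HF-SC Co and 6.15 ± 0.08 in b-KC Co (SD, n = 3 mice in each), and that of complex III was 6.94 ± 0.19 and 7.64 ± 0.10. In b-KC GFP complex I stood at 6.98 ± 0.39 and complex III at 8.75 ± 0.41, and in b-KC Tom at 6.99 ± 0.14 and 8.76 ± 0.18. By mean FPKM over all 18 libraries, the most abundant genes of complexes I to V were Ndufb9, Sdhb, Uqcrb, Ndufa4 and Atp5b. This did not hold in every group. Cox4i1 had a mean of 301 FPKM in HF-SC Co and 474 in b-KC Co, above Ndufa4 at 158 and 345.

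**Figure D2:**
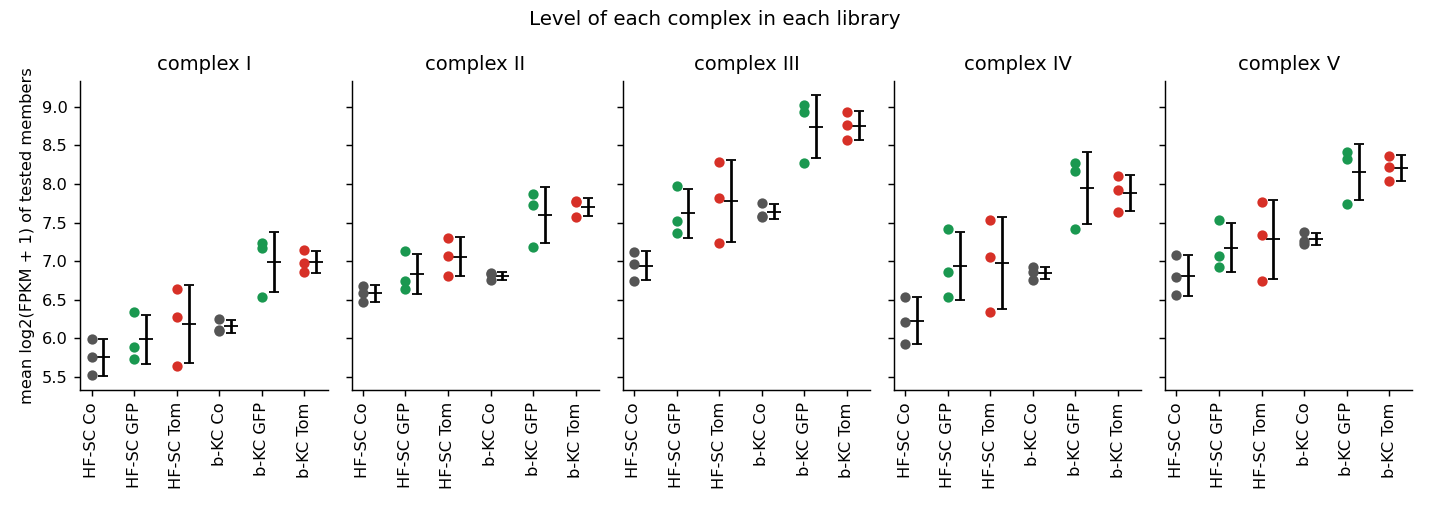
Mean log2(FPKM + 1) of the tested genes of each complex in each library (points, 3 mice per group), with the group mean and SD beside them. In all 5 panels the b-KC GFP and b-KC Tom points lie above the b-KC Co points, while HF-SC GFP overlaps HF-SC Co for complexes I, II and V and HF-SC Tom does so for complexes I, IV and V.

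In basal keratinocytes, genes of all 5 complexes were higher in DKO* mice than in Co mice, in mutant and in non-mutant cells. In b-KC GFP 69 of 86 tested genes were higher and 0 were lower at an adjusted p under 0.05 (limma on log2(FPKM + 1), Benjamini-Hochberg over 12751 genes), or 80.2% of the tested respiratory chain genes where 20.3% of all genes were higher and 21.3% were lower. In b-KC Tom 68 were higher and 0 lower, or 79.1% against 22.6% of all genes higher and 23.3% lower. Their median log2 fold change was 0.95 for GFP and 0.96 for Tom, where the median of all tested genes was -0.03 and -0.02. Every b-KC GFP library lay above every Co library for 72 of the 86 genes (28% of all genes), and every b-KC Tom library for 80 (31.6% of all genes). Leaving out mouse 815 lowered the calls to 17 for GFP and 34 for Tom, with medians of 0.87 for both, and leaving out Co mouse 828 lowered those for GFP to 44. The share of all genes called higher was 10.5% (GFP) and 15.1% (Tom) without mouse 815 and 13.9% (GFP) without mouse 828. Without mouse 817 the calls rose to 81 and 75, and the share of all genes to 30.0% (GFP) and 28.7% (Tom).

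By complex, b-KC GFP had higher calls for 33 of 43 genes of complex I, 3 of 4 of complex II, 7 of 8 of complex III, 12 of 14 of complex IV and 14 of 17 of complex V. The counts in b-KC Tom were 31, 3, 8, 12 and 14. The medians in b-KC GFP were 0.83, 0.69, 1.05, 1.06 and 0.95 on the log2 scale for complexes I to V, and in b-KC Tom 0.79, 0.75, 1.04, 1.03 and 1.00. Within complex I all 7 core subunits, which carry the flavin, the iron-sulfur clusters and the catalytic path, were higher in both, with 20 of 29 accessory subunits for GFP and 19 for Tom. All 10 common subunits of complex IV and all 6 genes of the catalytic F1 head of complex V and of the stalk subunit Atp5o were higher in both, with 8 of 9 other subunits, which form the membrane part Fo and the rest of the stalk. The 16 genes that passed in neither included Sdhc, Cox7a2l, Cox6b2, Atp5g2, Atp5s and Atp5sl.

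**Figure D3:**
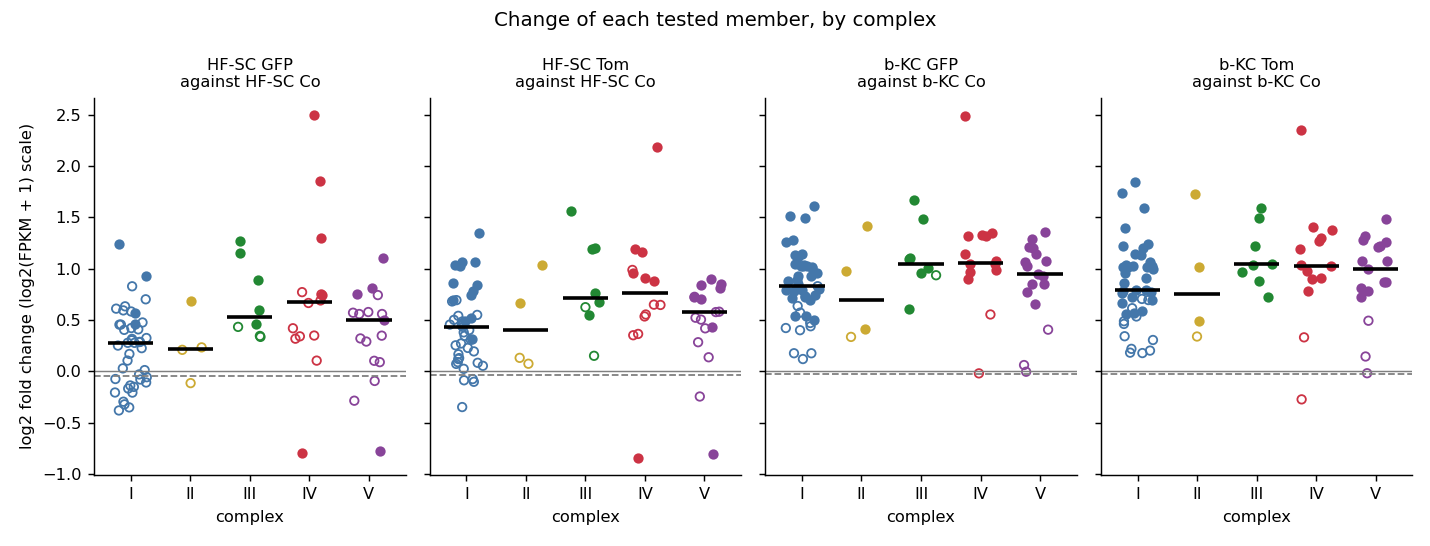
log2 fold change of each tested gene against Co (vertical axis, log2(FPKM + 1) scale) by complex, in the 4 populations of DKO* mice. Filled points passed an adjusted p under 0.05, open points did not, black bars are the medians of the complexes and the dashed line is the median of all tested genes. Nearly all points lie above 0 in b-KC, and Ndufa4 is the highest point of complex IV in every panel.

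Ndufa4, first described with complex I and now placed in complex IV, had the largest change of all. It was at 399, 316 and 321 FPKM in b-KC Co, at 2531, 2372 and 1191 in b-KC GFP and at 2228, 2030 and 1193 in b-KC Tom. The gene lies on the minus strand at chr6:11850373-11857446 (NCBIM37). In HF-SC it was at 210, 123 and 140 FPKM in Co, at 1203, 827 and 665 in GFP and at 1299, 712 and 377 in Tom. No library of a DKO* mouse overlapped its Co group, and mouse 817 was the lowest each time. For GFP against Co the log2 fold change was 2.50 in stem cells and 2.49 in keratinocytes (SE 0.41, adjusted p = 0.000208 and 0.000337), and for Tom against Co it was 2.19 and 2.35 (SE 0.41, adjusted p = 0.000502 and 0.000327). It rose from rank 15 to 19 among the respiratory chain genes of HF-SC Co and 5 to 10 of b-KC Co to rank 1 to 3 in DKO* libraries. Its ratio to Cox4i1, a common subunit of complex IV, was 0.43 to 0.81 in Co and 1.38 to 2.81 in DKO* libraries, again without overlap. Under a stricter rule, an adjusted p under 0.01 and a log2 fold change beyond 2 in size, Ndufa4 was the 1 respiratory chain gene called in each of the 4 comparisons, where this rule called 3.07%, 4.09%, 1.87% and 2.75% of all genes. Its transcript matched 2 other places in the genome over at least 80% of its length at 90% identity or more, so that a share of its reads could be placed there.

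Ndufa4l2, the paralogue of Ndufa4 known as a target of hypoxia-inducible factor, was far less abundant. It was at 16.7, 16.7 and 19.2 FPKM in b-KC Co, at 82.6, 59.9 and 18.1 in b-KC GFP and at 56.9, 68.2 and 22.3 in b-KC Tom. The library of mouse 817 was near the Co level in both. The log2 fold changes of 1.32 and 1.30 (SE 0.51) only just passed (adjusted p = 0.0498 and 0.0489), and both were lost in 7 of 11 alternative fits. In HF-SC it was at 6.68 to 8.87 FPKM in Co, at 50.7, 34.5 and 14.1 in GFP and at 20.4, 11.9 and 15.7 in Tom, and it rose in GFP (1.85, SE 0.51, adjusted p = 0.0095) while the difference in Tom did not pass (0.99, adjusted p = 0.13). Ndufa4l2 made up 1.4997% to 5.64% of the summed FPKM of the pair over the 18 libraries.

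In complex III all 3 core subunits tested (Uqcrc1, Uqcrc2 and Uqcrfs1) were higher in each comparison with Co. Of the 5 accessory subunits 4 were higher in GFP and 5 in Tom keratinocytes, against 2 and 3 in stem cells. Uqcrq, an accessory subunit, was at 181, 142 and 140 FPKM in b-KC Co, at 655, 592 and 302 in b-KC GFP and at 465, 548 and 389 in b-KC Tom. It rose by 1.67 and 1.59 on the log2 scale (SE 0.33, adjusted p = 0.00132 and 0.00138) with no overlap. Uqcr10, another accessory subunit, rose by 1.48 and 1.495 (SE 0.33, adjusted p = 0.00256 and 0.00183), and Uqcrfs1, the Rieske iron-sulfur protein, by 1.10 and 1.04 (SE 0.26, adjusted p = 0.00376 and 0.00421). Uqcrb, which had the highest mean FPKM of the complex over all 18 libraries, passed in b-KC Tom (1.22, adjusted p = 0.0138) and narrowly missed in b-KC GFP (0.94, adjusted p = 0.0521). Its transcript had 5 near copies in the genome.

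Within complex I the largest changes were those of Ndufaf4, an assembly factor, and of Ndufb6 and Ndufc2, accessory subunits of the membrane arm. Ndufaf4 was at 6.23, 5.43 and 4.15 FPKM in b-KC Co, at 19.95, 21.95 and 13.3 in b-KC GFP and at 23.6, 21.6 and 19.1 in b-KC Tom, a rise of 1.61 and 1.85 (SE 0.23, adjusted p = 0.000125 and 2.33e-05). Ndufb6 was at 157 to 189 FPKM in b-KC Co and at 461 to 676 in the 6 b-KC libraries of DKO* mice, with log2 fold changes of 1.52 and 1.73 (SE 0.35, adjusted p = 0.0033 and 0.001). Ndufc2 was at 80.7 to 93.1 FPKM in b-KC Co and at 188 to 296 in the others (1.49 and 1.59, SE 0.32, adjusted p = 0.00204 and 0.000963). Of the 7 assembly factors, 6 passed for GFP and 5 for Tom. Ndufb9, which had the highest mean FPKM of complex I over all 18 libraries, rose by 0.85 and 0.78 (SE 0.28, adjusted p = 0.0241 and 0.0332), below the median of all respiratory chain genes. Each of these calls was lost in 6 of 11 alternative fits.

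Complex II, the smallest complex and the one shared with the citric acid cycle, changed unevenly among its 4 genes. Sdhd, a membrane anchor, was at 123, 108 and 105 FPKM in b-KC Co, at 367, 346 and 213 in b-KC GFP and at 402, 396 and 329 in b-KC Tom. It rose by 1.42 and 1.73 on the log2 scale (SE 0.23, adjusted p = 0.000314 and 3.53e-05). Sdhb, the iron-sulfur subunit, rose by 0.97 and 1.01 (SE 0.25, adjusted p = 0.00662 and 0.00419), and Sdha, the flavoprotein, by 0.42 and 0.50 (SE 0.13, adjusted p = 0.021 and 0.00696). Sdhc, the other anchor, was at 66.5 to 75.1 FPKM in b-KC Co and at 69.1 to 106 in b-KC GFP, and did not pass in b-KC GFP (0.34, 95% interval -0.0036 to 0.68) or b-KC Tom. In HF-SC Sdhd also rose, by 0.69 in GFP and 1.04 in Tom (SE 0.23, adjusted p = 0.0281 and 0.00202), and Sdhb in Tom (0.67, SE 0.25, adjusted p = 0.0404), a call lost in 7 of 11 alternative fits.

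In HF-SC GFP 18 of 86 genes were higher and 2 lower, or 20.9% higher where 18.5% of all genes were higher and 20% were lower, so that the share called higher was near that of all genes while few were lower. In HF-SC Tom 34 were higher and 2 lower, or 39.5% higher where 22.3% of all genes were higher and 22.1% lower. The medians were 0.35 and 0.53 on the log2 scale, with -0.05 and -0.04 for all tested genes. Without mouse 814 they were 0.17 and 0.24, without mouse 825 the GFP median was 0.23, and without mouse 817 the Tom median was 0.83. With the trend on transcript length removed, 32 of 83 genes were higher and 7 lower in GFP (38.6% and 8.43%), where 22.5% and 22.4% of all genes were, so that the share higher then lay above that of all genes. The complexes differed in these counts. In GFP stem cells 4 of 43 genes of complex I were higher (9.30%), 1 of 4 of complex II, 5 of 8 of complex III, 4 of 14 of complex IV and 4 of 17 of complex V, with medians of 0.28, 0.22, 0.53, 0.68 and 0.50. In Tom stem cells the counts were 13, 2, 6, 6 and 7, with medians of 0.43, 0.40, 0.72, 0.76 and 0.58. Differences between complexes were not tested. All libraries lay above all HF-SC Co libraries for 29 genes in GFP (24.7% of all genes) and 31 in Tom (24.4% of all genes). Of the 18 genes higher in HF-SC GFP 17 were also higher in the other 3 comparisons with Co, in which the same Co mice or the same DKO* mice take part. Of the 86 genes 14 passed in none of the 4. The same counts over all genes were not made, so neither count is read as a trait of these genes.

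Leaving out mouse 817 raised the HF-SC counts to 43 higher in GFP, where 24.5% of all genes were, and 69 in Tom, where 29.3% were, while leaving out mouse 814, 815, 825 or 828 lowered them to 8 to 10 in GFP, where 13.5% to 15.6% of all genes were higher, and 11 to 19 in Tom, where 15.5% to 17.6% were. Without mouse 815, 9.30% of the respiratory chain genes in HF-SC GFP and 12.8% in HF-SC Tom were higher, where 13.5% and 15.5% of all genes were. Mouse 817 had the lowest of the 3 values for 74 of 86 genes among the GFP and 81 among the Tom stem cell libraries, where it was lowest for 35.3% and 46.4% of all tested genes. Among keratinocyte libraries it was lowest for 83 genes (GFP) and 67 (Tom), against 47.2% and 31.3% of all tested genes. In Co mice, 825 was the lowest for 75 genes in HF-SC, against 37.6% of all tested genes.

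Beside Ndufa4 and Ndufa4l2, the leading genes in HF-SC GFP were Cox5a, a common subunit of complex IV, Uqcrq and Ndufaf4. Cox5a was at 111, 62.1 and 57.7 FPKM in HF-SC Co, at 225, 177 and 153 in GFP and at 233, 169 and 122 in Tom. It rose by 1.30 and 1.19 on the log2 scale (SE 0.25, adjusted p = 0.000894 and 0.00151), and the same gene rose by 1.14 and 1.41 in b-KC. Uqcrq was at 56.4 to 80.4 FPKM in HF-SC Co, at 127 to 250 in GFP and at 129 to 312 in Tom (1.27 and 1.56, SE 0.33, adjusted p = 0.00704 and 0.00149). Ndufaf4 rose from 3.31 to 6.10 FPKM in Co to 10.6 to 12.9 in GFP and 8.68 to 16.2 in Tom (1.24 and 1.34, SE 0.23, adjusted p = 0.00065 and 0.000275). Uqcrfs1 and Uqcr10 rose by 1.19 and 1.21 in HF-SC Tom. Atp5b, the catalytic beta subunit of the synthase and the most abundant gene of complex V, was at 504 to 578 FPKM in Co, 810 to 1105 in GFP and 847 to 955 in Tom, and rose by 0.75 and 0.72 (SE 0.19, adjusted p = 0.00506 and 0.00561).

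Cox6b2 and Atp5s were the genes that were lower, in HF-SC GFP and in HF-SC Tom. Cox6b2, a form of the Cox6b subunit known from testis, fell from 3.14 to 4.14 FPKM in HF-SC Co to 1.15 to 2.34 in GFP and 1.55 to 1.60 in Tom, by 0.80 and 0.84 on the log2 scale (SE 0.25, adjusted p = 0.0185 and 0.0123). Atp5s, a regulatory factor of the synthase, fell from 14.9 to 21.2 FPKM to 8.15 to 10.4 in GFP and 6.19 to 13.5 in Tom, by 0.78 and 0.80 (SE 0.20, adjusted p = 0.00735 and 0.00517).

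**Figure D4:**
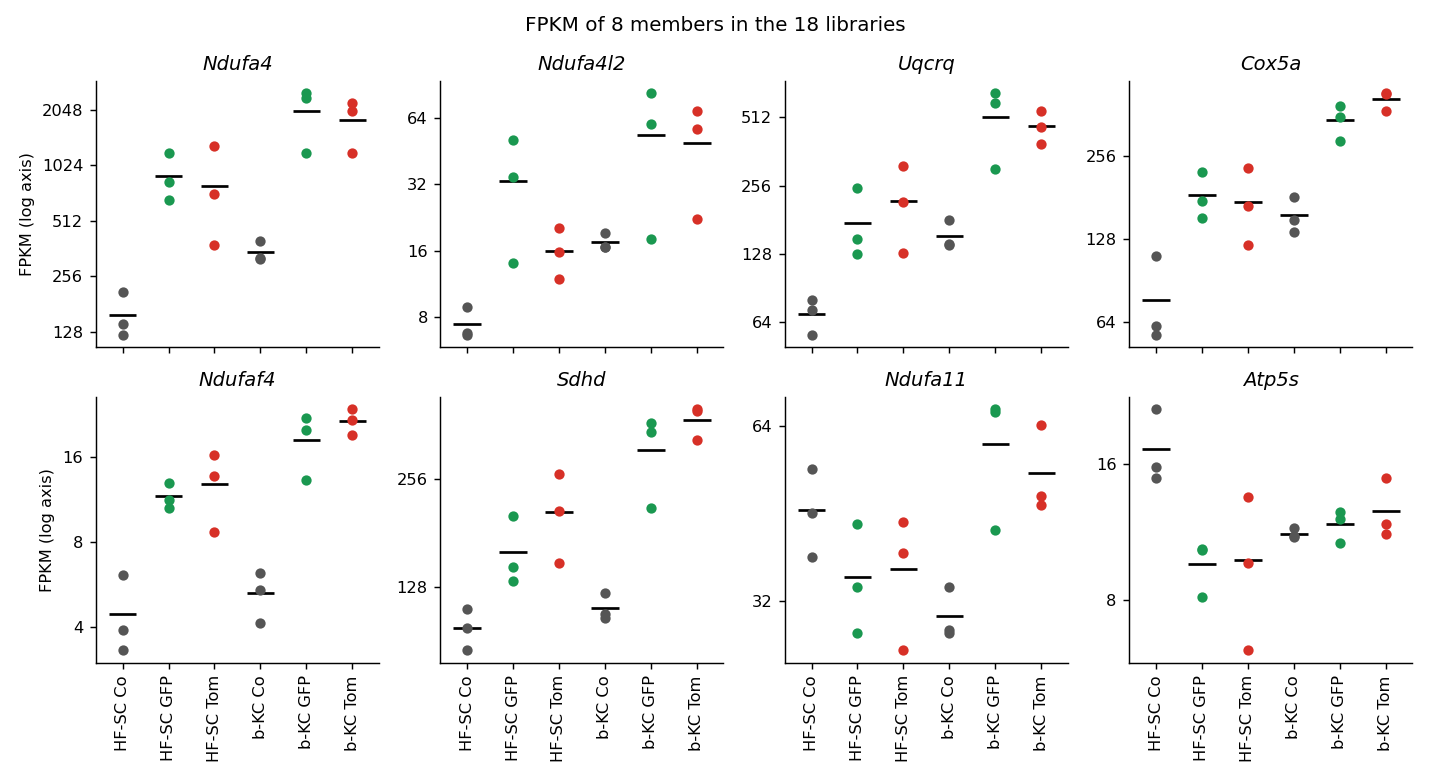
FPKM (vertical log axis) of 8 respiratory chain genes in each library, as 1 point per mouse in each of the 6 groups, with a bar at the group mean. Ndufa4, Uqcrq, Cox5a, Ndufaf4 and Sdhd are above their Co group in every DKO* library, Ndufa11 is above Co only in b-KC, and Atp5s is below Co in HF-SC.

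Marker genes of other cells and of proliferation moved with these groups. Of 16 endothelial genes, 15 to 16 were at 1 FPKM or more in HF-SC Tom, with a sum of 1027 to 3485 FPKM and none at 0, against 13 to 15 genes and 140 to 209 FPKM in HF-SC Co, at most 12 genes and 52.6 FPKM in HF-SC GFP, and at most 14.9 FPKM in b-KC. In bulk samples fewer cells of a type and less RNA per cell cannot be told apart. The 6 proliferation genes (Mki67, Top2a, Ccnb1, Cdk1, Pcna and Mcm2) were all at 1 FPKM or more in every library and summed to 110 to 134 FPKM in HF-SC Co, 255 to 339 in HF-SC GFP and 320 to 431 in HF-SC Tom, and to 257 to 282 in b-KC Co, 389 to 500 in b-KC GFP and 549 to 637 in b-KC Tom. Mki67 overlapped Co in b-KC GFP, at 12.3 to 13.4 FPKM in Co and 12.7 to 13.7 in GFP. Pcna overlapped Co in stem cells, at 81.8 to 107 FPKM in Co, 101 to 133 in GFP and 90.8 to 189 in Tom. The other comparisons of these 6 genes with Co showed higher values without overlap. Of 11 leukocyte genes, 2 were at 1 FPKM or more in each DKO* keratinocyte library and 3 to 8 in each DKO* stem cell library. Their sum was 173 to 812 FPKM in those b-KC groups and 102 to 199 in those HF-SC groups, against 5.53 to 13.4 in Co, and was mostly Cd74 (at most 805 FPKM), with Ptprc at 0.95 FPKM or less in every library. Suprabasal genes (5 in the list) summed to 3831 to 4857 FPKM in b-KC Co, 1952 to 2390 in b-KC GFP and 1380 to 3338 in b-KC Tom, with Krt10 at 2580 to 3418, 719 to 1283 and 717 to 813. In HF-SC their sum was 401 to 529 in Co, 702 to 1588 in GFP and 577 to 744 in Tom. The genes of this list went different ways in HF-SC Tom. Krt1 was at 62.6 to 84.9 FPKM in HF-SC Co and 243 to 426 in HF-SC Tom, and Ivl at 2.92 to 6.01 and 7.75 to 11.9. Sbsn was lower, at 95.8 to 104 and 46.0 to 56.0, as was Lor, at 5.17 to 10.8 and 0.27 to 3.23. Krt10 overlapped Co, at 231 to 327 and 123 to 431. Of the bulge genes, Cd34 was at 640 to 889 FPKM in HF-SC Co, 161 to 228 in GFP and 260 to 319 in Tom, and Lgr5 at 143 to 175, 33.8 to 66.6 and 26.7 to 71.4. Each DKO* group was thus lower than Co without overlap for Krt10 in keratinocytes and for Cd34 and Lgr5 in stem cells. Other suprabasal genes did not all follow Krt10, which made up most of the sum in b-KC Co. In keratinocytes Krt1 was at 909 to 1073 FPKM in Co, 884 to 1148 in GFP and 592 to 2442 in Tom, and Ivl at 15.6 to 26.4, 11.2 to 48.5 and 9.92 to 12.4. Krt15, a bulge marker, was listed at 0 in 1 HF-SC Co library (mouse 828) and at 2848 to 11764 FPKM in the other stem cell libraries. In keratinocytes the fibroblast list (7 genes) summed to 9.93 to 14.0 FPKM in Co, 17.1 to 30.6 in GFP and 27.4 to 37.2 in Tom, mostly Fbln1, with Col1a1 at 0.49 FPKM or less. The adipocyte list (8 genes) was nearly all Cidea, at 27.7 to 36.3 FPKM in Co, 3.15 to 12.1 in GFP and 0.95 to 5.31 in Tom, with Adipoq at 0.04 FPKM or less. The part of these lists in the respiratory chain results was not tested.

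The complexes did not keep the same distance from each other. Within each library, the mean log2 level of complex III lay above that of complex I by 1.12 to 1.22 in HF-SC Co, by 1.63 to 1.64 in HF-SC GFP and by 1.54 to 1.65 in HF-SC Tom. In basal keratinocytes the distance was 1.47 to 1.502 in Co, 1.74 to 1.78 in GFP and 1.71 to 1.80 in Tom. The distance of complex IV from complex I was 0.41 to 0.55 in HF-SC Co, 0.81 to 1.07 in HF-SC GFP and 0.70 to 0.89 in HF-SC Tom, and in b-KC 0.65 to 0.75, 0.87 to 1.03 and 0.78 to 0.96. For both complexes all DKO* libraries lay above all Co libraries of the same cell type, also those of mouse 817, but for complex IV this rested partly on Ndufa4 and Ndufa4l2. Without this pair, an alternative chosen after the data were seen, the mean rise of the distance from Co fell from 0.48 to 0.24 in GFP and from 0.32 to 0.18 in Tom stem cells, and from 0.28 to 0.14 in GFP and from 0.20 to 0.073 in Tom keratinocytes. Both Tom groups then overlapped Co. The distance of complex II from complex I was 0.69 to 0.95 in HF-SC Co, 0.78 to 0.90 in HF-SC GFP and 0.67 to 1.17 in HF-SC Tom, and overlapped throughout. For complex V it was 1.04 to 1.09 in HF-SC Co, 1.18 to 1.19 in HF-SC GFP and 1.07 to 1.12 in HF-SC Tom, and in b-KC 1.11 to 1.16, 1.15 to 1.21 and 1.18 to 1.25, so that HF-SC Tom and b-KC GFP overlapped Co. These are values of 3 mice per group over sets of genes, with the low assembly factors counted in complex I, described without a test.

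Of the 92 genes 6 stayed below the filter, all of them forms of complex IV subunits known from other tissues. Cox4i2 (at most 0.27 FPKM), Cox6a2 (0.15), Cox7a1 (0.83), Cox8b (0.25) and Cox8c (0.11) never reached 1 FPKM, and Cox7b2 was listed at 0 in all 18 libraries. Their common counterparts were at 244 to 1129 FPKM (Cox4i1), 123 to 760 (Cox6a1), 82.5 to 406 (Cox7a2), 118 to 490 (Cox8a) and 61.7 to 351 (Cox7b), so that the forms under the filter made up at most 0.53% of their pair, a value reached by Cox7a1. Cox6b2, the form that was tested, made up 0.07% to 2.34% of its pair with Cox6b1. The common forms rose in b-KC GFP by 0.90 (Cox4i1), 0.97 (Cox6a1), 1.33 (Cox6b1), 0.99 (Cox7a2), 1.32 (Cox7b) and 1.05 (Cox8a) on the log2 scale, and all 6 also passed in b-KC Tom. Of 11 alternative fits, Cox4i1 was lost in 6 for GFP and 6 for Tom, and Cox7a2 in 7 and 4. Cox6a1 was lost in 3 and 3, Cox8a in 1 and 3, and Cox6b1 and Cox7b in 1 for each.

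Mutant and non-mutant cells of the same mice were compared directly. In HF-SC GFP against HF-SC Tom 0 of the 86 genes passed (limma, with 1 at an unadjusted p under 0.05), where 2.83% of all genes were higher and 5.8% lower, and the median was -0.20, or -0.09 without mouse 815 and -0.34 without mouse 817. In b-KC GFP against b-KC Tom 0 passed (limma, with 0 at an unadjusted p under 0.05), where 1.19% of all genes were higher and 0.518% lower, and the median was -0.003, or -0.15 without mouse 814 and 0.15 without mouse 817, so that its sign depended on the mice. When the mouse entered the fit as a random block, 1 gene was lower in HF-SC GFP (7.95% of all genes were). For Ndufa4 the difference was 0.31 in HF-SC (95% interval -0.56 to 1.18) and 0.14 in b-KC (-0.73 to 1.01), so that differences of up to about 1 on the log2 scale could not be seen for this gene. For Sdhd it was -0.35 (-0.84 to 0.14) and -0.31 (-0.81 to 0.18).

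The cell types were compared in Co mice. In HF-SC Co against b-KC Co 23 of 86 were lower and 3 higher, where 27.3% of all genes were lower and 24.6% higher, with a median of -0.51 against -0.06 for all genes. All HF-SC Co libraries lay below all b-KC Co libraries for 59 genes (37.4% of all genes). Each Co mouse gave both cell types, and a fit of these 6 libraries with the mouse as a block called 62 lower and 3 higher, where 36.1% of all genes were lower. The share of 26.7% without the block was near that of all genes, and the blocked share was above it. Leaving out mouse 817, which has no library in these groups but enters the estimate of the spread, gave 54 lower, or 62.8% against 34.4% of all genes. Leaving out mouse 810, 815, 825 or 828 gave 8 to 13 lower, or 9.30% to 15.1%, below the share of all genes in each case (at most 23.8%), so that the share lower relative to all genes depended on the mice and on the block.

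The lowest genes of HF-SC Co relative to b-KC Co were Ndufa4, Uqcrfs1, Uqcrq, Ndufs8 and Cox5a. Ndufa4 differed by -1.15 on the log2 scale (SE 0.41, adjusted p = 0.0273), and both Uqcrfs1 (SE 0.26, adjusted p = 0.00168) and Uqcrq (SE 0.33, adjusted p = 0.00981) differed by -1.14. Ndufs8, an iron-sulfur core subunit of complex I, was at 49.0 to 63.3 FPKM in HF-SC Co and 116 to 129 in b-KC Co, a log2 fold change of -1.07 (SE 0.25, adjusted p = 0.00237). Cox6b2 was higher in HF-SC Co, at 3.14 to 4.14 FPKM against 0.28 to 1.77 (1.11, SE 0.25, adjusted p = 0.0015). Ndufa11 (0.58) and Atp5s (0.57) were the others that were higher.

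The changes in both cell types were also compared with each other. The change from Co to GFP was larger in HF-SC than in b-KC for 4 of 86 genes by sign, with a median difference of -0.58, and 1 gene passed, as lower in HF-SC, where 7.31% of all genes passed as higher and 5.22% as lower. For Tom the median difference was -0.32, or -0.59 without mouse 814 and -0.17 without mouse 817, and 2 genes passed, both as lower, where 10.3% of all genes were higher and 5.58% lower. With the length trend removed the median for GFP was -0.16, and among all genes in this comparison those under 750 bases had a median of -0.27 and those of 750 to 1500 bases -0.37. Ndufa11, an accessory subunit of the membrane arm of complex I, passed in both. In stem cells the Co libraries had 54.1, 38.1 and 45.5 FPKM, the GFP libraries 43.5, 33.9 and 28.3, and the Tom libraries 43.9, 38.8 and 26.3. In keratinocytes the Co libraries had 33.9, 28.3 and 28.5 FPKM, the GFP libraries 67.8, 68.6 and 42.4, and the Tom libraries 47.0, 64.4 and 48.5. The DKO* libraries thus lay above Co in keratinocytes and overlapped Co in stem cells. It rose in b-KC (0.93 and 0.79, SE 0.23, adjusted p = 0.00464 and 0.01) and was at -0.38 and -0.35 in HF-SC, without passing, and the differences between cell types were -1.31 (SE 0.32, adjusted p = 0.0136) and -1.14 (SE 0.32, adjusted p = 0.0238). Atp5s differed in Tom by -0.95 (SE 0.29, adjusted p = 0.0358). When the mouse was a random block, 10 genes were lower for GFP and 9 for Tom, where 10.5% and 9.65% of all genes were. Leaving out mouse 817 gave 21 lower for GFP (24.4%, against 15.1% of all genes) and 4 for Tom (4.65%, against 9.70%), and leaving out mouse 814 gave 5 for Tom (5.81%, against 4.07%), while none passed for GFP without 810, 815 or 828, nor for Tom without 810, 815, 825 or 828.

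Other genes of mitochondria were followed by lists, with no test between them. Of all genes, 18.5% were higher in GFP stem cells and 22.3% in Tom stem cells, against 20.3% and 22.6% for GFP and Tom keratinocytes. Of 77 tested genes of the mitochondrial ribosome, which translates the mitochondrially encoded subunits, 64 were higher in each DKO* keratinocyte population, with 0 lower (medians 0.80 and 0.82). In stem cells 15 were higher for GFP, a share near that of all genes, and 35 for Tom. Mrpl47 rose by 1.51 and 1.70 in b-KC (SE 0.30), and Mrpl12 by 1.13 in HF-SC GFP and 1.53 in HF-SC Tom (SE 0.23). Of 24 import genes of the Tomm and Timm families 21 were higher in b-KC GFP, 19 in b-KC Tom, 10 in HF-SC GFP and 15 in HF-SC Tom, led by the small chaperone gene Timm8a1 at 1.73, 2.001, 1.72 and 1.63 (SE 0.27).

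Of 14 genes of electron carriers and ubiquinone synthesis 7 were higher in each b-KC comparison and 6 in each HF-SC comparison. Cycs, cytochrome c, was at 71.3 to 80.1 FPKM in b-KC Co and 199 to 296 in DKO* b-KC, a rise of 1.60 and 1.76 (SE 0.26), and it rose by 1.26 and 1.18 in HF-SC. Of 19 genes of the citric acid cycle and pyruvate dehydrogenase 14 were higher in each b-KC comparison and 12 in each HF-SC comparison, with medians of 0.42 to 0.62, and Pcx, pyruvate carboxylase, rose by 1.85 in HF-SC GFP (SE 0.21). Of 38 assembly factors outside the naming rule 16 and 17 were higher in b-KC GFP and b-KC Tom, and 8 and 6 in HF-SC, near or below the shares of all genes, with Higd1a, a hypoxia-inducible factor of complexes III and IV, at 1.68 in HF-SC GFP (SE 0.36). Of 10 carriers, channels and synthase accessories 7 were higher in each b-KC comparison, 4 in HF-SC GFP and 6 in HF-SC Tom. Slc25a5, an ATP and ADP exchanger, was at 1.05 in HF-SC GFP (SE 0.22).

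Of 18 tested regulators of mitochondrial gene expression, 3 were higher for GFP and 2 for Tom in stem cells (medians 0.04 and -0.04), and 4 for each in keratinocytes (medians 0.16 and 0.20), shares near or below those of all genes. Ssbp1, the single-stranded DNA binding protein of mitochondria, rose by 1.06 and 1.12 in GFP and Tom keratinocytes (SE 0.27, adjusted p = 0.00683 and 0.00395), and Tfam, the main mitochondrial transcription factor, by 0.53 and 0.47 (SE 0.18, adjusted p = 0.029 and 0.0443). Tfb2m, another mitochondrial transcription factor, rose in GFP keratinocytes (0.46, SE 0.17, adjusted p = 0.0451). Nrf1 was at 14.7 to 22.5 FPKM and Gabpa at 10.9 to 20.03 over all 18 libraries, and neither passed in the 4 comparisons with Co. Esrra, an orphan nuclear receptor that acts with PGC-1 coactivators, rose by 0.76 (GFP) and 0.47 (Tom) in stem cells and by 0.43 and 0.36 in keratinocytes (SE 0.14). Ppargc1b, which encodes the coactivator PGC-1 beta, rose in HF-SC GFP, HF-SC Tom and b-KC Tom (0.98, 0.60 and 0.65, SE 0.19), while Ppargc1a, at 1.69 FPKM or less in all libraries, fell in HF-SC Tom and b-KC Tom (-0.78 and -0.38, SE 0.12).

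Respiratory chain transcripts are short, and in DKO* keratinocytes short transcripts had higher medians than long ones. The median annotated length was 971 bases for 83 tested respiratory chain genes and 3036 for 11839 tested genes. In b-KC GFP all tested genes under 750 bases had a median log2 fold change of 0.46, those of 750 to 1500 bases 0.40, those of 1500 to 3000 bases 0.11 and those over 3000 bases -0.22. The respiratory chain genes of the same bins had medians of 1.04 (25 genes), 0.89 (33), 0.93 (18) and 1.07 (7), and so lay above the others of like length in all 4 bins. In GFP stem cells the medians of all genes were 0.22, 0.04, -0.02 and -0.08 in the same order, and the shares called higher 19.7%, 20.7%, 21.9% and 16.6%, so that no more genes were called among the shortest than at 1500 to 3000 bases. In Tom stem cells the medians were 0.34, 0.20, 0.03 and -0.13. When the trend on length was removed from each library, the keratinocyte medians fell to 0.47 (GFP) and 0.54 (Tom), with -0.03 for all genes in both, and the stem cell medians to 0.26 (GFP) and 0.34 (Tom). Whether the length pattern reflects the cells or the libraries was not tested. For 17 of 89 genes aligned, the longest coding transcript matched at least 1 other place in the genome over 80% of its length. The spans of 17 genes, introns included, overlapped another gene of the table on either strand. Reads from overlapping exons of opposite strands cannot be told apart in unstranded libraries, but overlap of exons was not checked.

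**Figure D5:**
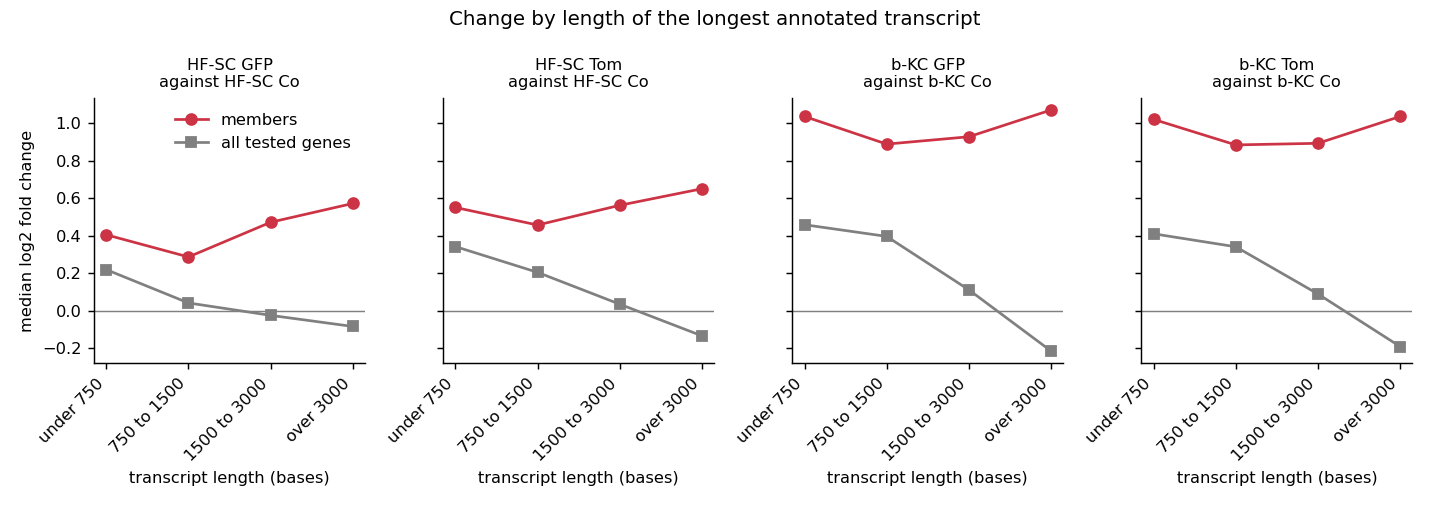
Median log2 fold change against Co of the respiratory chain genes (circles) and of all tested genes (squares) by the length of the longest annotated transcript, in the 4 populations of DKO* mice. The respiratory chain medians lie above the others in all 4 length bins of each panel, with 7 genes in the bin over 3000 bases.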

How the data were processed

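Sorted ear skin cells of 6 mice gave 18 RNA-seq libraries in 6 groups of 3. According to the methods and the submitters' processing notes, the authors checked unstranded single-end reads with FastQC 0.11.0, aligned them to NCBI37/mm9 with TopHat2 2.0.10 and Bowtie 1.0.0, and deposited FPKM values from Cufflinks 2.2.1; how libraries were scaled is not given in the sources used here. FPKM are not counts, so limma 3.58.1 (R 4.3.3, empirical Bayes with a trend) was run on log2(FPKM + 1) of 12751 genes at 1 FPKM or more in at least 3 libraries, for 9 comparisons, with Benjamini-Hochberg adjustment within each and a threshold of 0.05. Fold changes on this scale understate those of low genes. The script was tested on simulated data. Depth was estimated from low values, of which 75.7% to 80.1% lay within 0.1 of whole reads. Copies were sought with minimap2 2.31.

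The genes named are the 5 called genes with the largest changes and no overlap of libraries in each of the first 7 comparisons, the most abundant gene of each complex, the Ndufa4 pair, the genes of complex II, the tissue forms of complex IV with their common forms, genes called in a difference between cell types and, per list, the leading called genes. Nrf1, Gabpa, Esrra, Tfb2m and Ppargc1a, and the examples of genes that passed in neither keratinocyte comparison, were named after their values were seen. The members and lists were chosen with earlier results of these data known. Each mouse gave several libraries, so mouse numbers pair them by design: deviations from group means correlated at 0.08 to 0.69 between same-numbered libraries. Alternatives were another pseudocount, no filter, rescaling, removal of a length trend, the mouse as a block, stricter calls and leaving out each mouse. One gene matched by the naming rule is not reported here by name.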

Additional observations from a re-analysis of the deposited data

Results flagged for a closer look

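For 2 genes the change from Co differed between the cell types by a test of the difference itself (limma, adjusted over 12751 genes). Ndufa11 changed less in HF-SC than in b-KC by -1.31 for GFP (SE 0.32, adjusted p = 0.0136), with alternatives between -1.41 and -1.17, and the call was lost in 3 of 11 of them. For Tom its difference was -1.14 (SE 0.32, adjusted p = 0.0238), lost in 4 of 11. Atp5s differed by -0.95 for Tom (SE 0.29, adjusted p = 0.0358), lost in 4 of 11. The calls that were lost all went with leaving out a mouse.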

How the results depend on the processing

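No call of a named gene changed direction in any alternative, and 41 of 84 such calls passed in all of them. Counts below add higher and lower genes. At an adjusted p under 0.01, against Co 10 genes passed for HF-SC GFP (11.6%, against 25.4% of all genes), 15 for HF-SC Tom (17.4%, against 29.6%) and 38 for b-KC GFP (44.2%, against 24.5%), 10 between the Co cell types (1 higher and 9 lower, against 18.7% and 19.3% of all genes) and 0 in either difference between cell types (5.21% and 8.05% of all genes). With a log2 fold change of at least 2 as well, 1 passed in each of the 4 comparisons with Co and 0 in the last 3. Removing the length trend gave 39 in HF-SC GFP (47.0%, against 44.9% of all genes), 1 between GFP and Tom stem cells (10.6% of all genes), and 2 and 6 for the differences for GFP and Tom (2.41% and 7.23%, against 14.2% and 18.3% of all genes), and medians of 0.47 and 0.54 in GFP and Tom keratinocytes and -0.16 for the difference for GFP. No filter gave 2 for that difference (8.52% of all genes), and rescaling gave 2 (12.8% of all genes). Without the Ndufa4 pair the distance of complex IV from complex I differed from Co by 0.24 and 0.18 in GFP and Tom stem cells and by 0.14 and 0.073 in GFP and Tom keratinocytes. The mouse as a random replicate block gave 1 between GFP and Tom stem cells (1.16%, against 13.6% of all genes). It gave 47 between the Co cell types (54.7%, against 60.0% of all genes). For the differences it gave 10 and 9 (11.6% and 10.5%, against 22.6% and 23.9% of all genes). The fixed block gave 65 between the Co cell types, where 36.1% of all genes were lower. The block moved no other count by more than 1.5 times.

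Leaving out each mouse gave, against Co, 8 to 44 (GFP) and 12 to 71 (Tom) in stem cells and 17 to 81 (GFP) and 34 to 75 (Tom) in keratinocytes. Between GFP and Tom it gave 0 to 4 in stem cells and 0 in keratinocytes, and it gave 9 to 57 between the Co cell types, and 0 to 21 and 0 to 5 for the differences for GFP and Tom. The lowest counts with Co came without mouse 815 and the highest without mouse 817. The cause was not tested. Depth is known only as an estimate, so no counting interval is given.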
